A study of Mus musculus with 9 samples.

Results

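The genes described here are 10 cytokine genes of myeloid cells: the pro-inflammatory Tnf, Il1a, Il1b, Il6, Il12b and Il18, the growth and survival factors Il15 and Csf1, and the anti-inflammatory Il10 and Il1rn. They were chosen by symbol, and the Ensembl identifiers that map to these symbols were all present, so that 10 of 53801 listed genes are covered. RNA sequencing was done on CD11b+ cells sorted by flow cytometry out of brain hemispheres bearing GL261 gliomas, in a study of arginase inhibition with and without blockade of PD-1. All mice were male C57BL/6J, 10 to 12 weeks old at the start, and all received tdTomato- and luciferase-expressing GL261 cells in the right striatum. The CTR group (2 libraries) was given saline by gavage. The OAT-1746 group (2 libraries) was given this oral inhibitor of arginases 1 and 2 by gavage at 50 mg/kg per dose from the day after implantation. The anti-PD-1 group (2 libraries) was injected intraperitoneally with antibody at 2.5 mg/kg per dose between day 8 and day 14, and the COMB group (3 libraries) received both agents. Cells were collected after enzymatic dissociation, on day 28 by the methods and on day 21 by a figure legend.

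Microglia and monocyte-derived macrophages are the main CD11b+ cells of gliomas, and their cytokines can act on tumor cells, on T cells and on the macrophages themselves. Arginase consumes L-arginine, which T cells need, and is a marker of immunosuppressive myeloid cells. The transcripts of several cytokines, Tnf among them, are made and degraded within a short time after a stimulus.

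Library totals were 13048075 to 18796479 counts. Before any result, OAT-1746 replicate 2 has to be named as standing apart: over all tested genes its Pearson r with the other libraries had a median of 0.927, against 0.970 to 0.979 for the other 8 libraries. The summed level of 10 monocyte and macrophage markers (all 10 found, Lyz2 the most abundant, none at 0 throughout) was 1222 CPM in that library, against 5907 CPM in OAT-1746 replicate 1 and 5027 to 8360.1 CPM in the other groups. Calls and the larger differences that involve OAT-1746 are therefore given with and without it. Itgam, the gene for CD11b, lay between 294 and 446 CPM in all 9 libraries. In bulk RNA, fewer cells of a type and less RNA per cell cannot be told apart, and this holds for every member below.

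All 10 cytokine genes were detected in every library, but over a wide range of levels. Corrected for exon length, the order of mean levels over the 9 libraries was Il1b (258 CPM per kb), Il1rn (102), Tnf (67.1), Il1a (65.1), Il18 (25.2), Csf1 (14.8), Il15 (5.54), Il6 (1.97), Il12b (1.64) and Il10 (0.990). Il1b, the secreted IL-1 that needs cleavage by caspase-1, was above 98.6% of the 12538 tested genes, and Il10 above 23.1%. In CTR, the order was led by Il1b (353 CPM per kb), Il1rn (98.0), Tnf (83.6) and Il1a (62.4). In COMB, Il1b (214 CPM per kb) and Il1rn (129.7) were followed by Il1a (40.9), and Tnf (25.7) came next to Il18 (24.7). Neighbours whose libraries overlapped were Il1rn and Tnf in CTR, and in COMB they were Tnf and Il18, Il6 and Il10, and Il10 and Il12b. Over all 9 libraries, every member overlapped with the next in the order except Il15 with Il6. No member met the mark for the count floor, which was to have no library above 10 counts. Il10 came closest, with 11 to 37 counts, and next were Il12b with 21 to 122 and Il6 with 41 to 143.

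**Figure D1:**
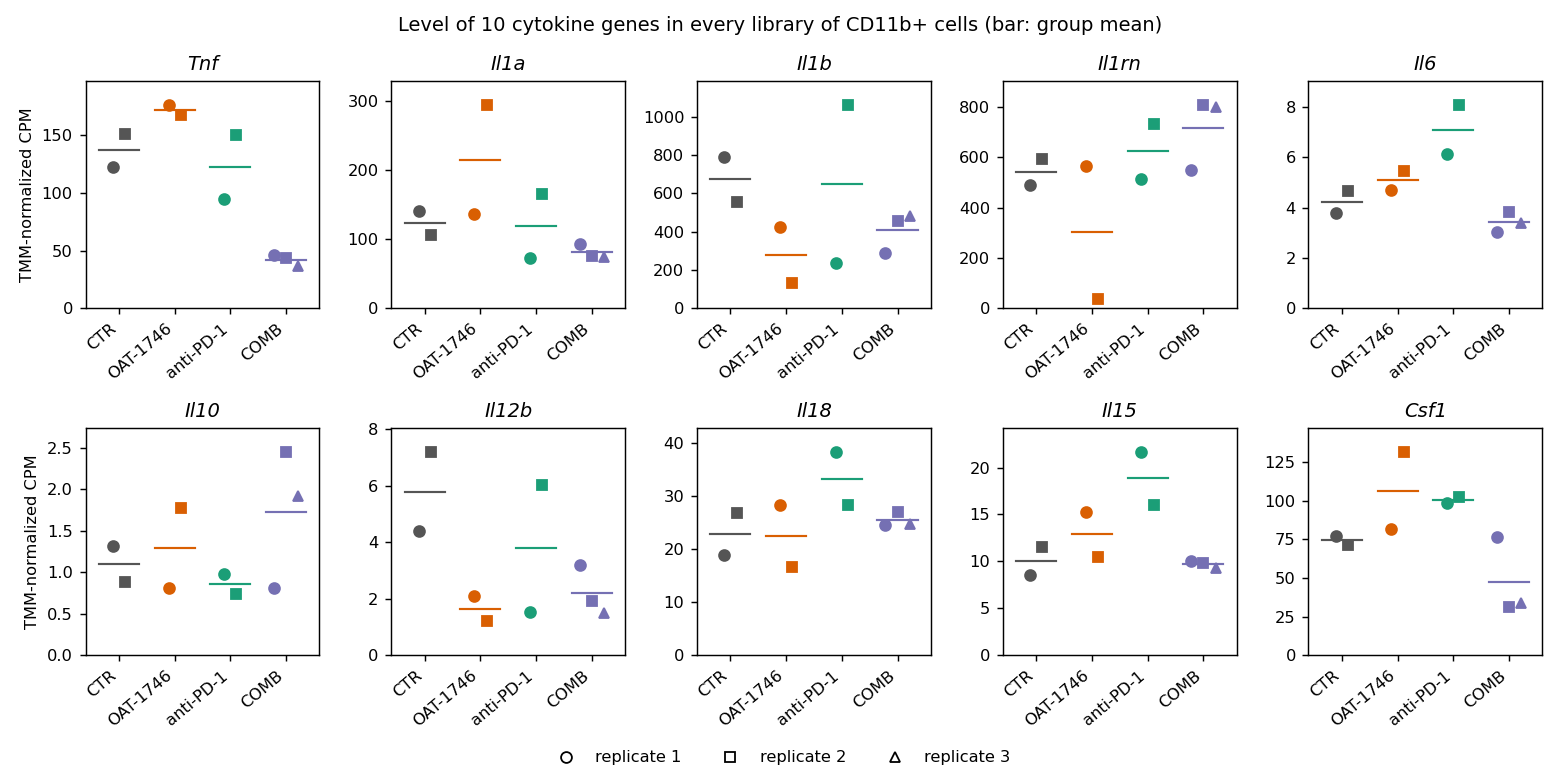
Level of each cytokine gene in each library, in CPM, by group (CTR, OAT-1746, anti-PD-1, COMB); each point is 1 library. Tnf is lower in the 3 COMB libraries (36.9 to 46.5 CPM) than in the 6 others (94.98 to 176 CPM).

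Few members were called. With edgeR at an adjusted p under 0.05 over all tested genes, 0 of 10 members were called for OAT-1746 against CTR, 0 for anti-PD-1 against CTR, 0 for COMB against CTR and 0 for COMB against anti-PD-1, and in each of these 4 comparisons 0% of the 12538 tested genes passed. For COMB against OAT-1746, 2 members were called lower (Tnf and Il1a), beside 15.8% of tested genes. For the interaction, the difference between the effect of OAT-1746 given with the antibody and given without it, 1 member was called (Tnf), beside 0.359%. At an unadjusted p under 0.05 the members were 1 (OAT-1746 against CTR, lower), 2 (anti-PD-1 against CTR, higher), 2 (COMB against CTR, lower), 4 (COMB against anti-PD-1, lower), 4 (COMB against OAT-1746, lower) and 5 (interaction, lower). The same cut-off was passed by 32.3%, 5.12%, 6.58%, 7.23%, 37.1% and 26.2% of tested genes. These counts and shares include OAT-1746 replicate 2. Without it, fewer members and a smaller share of tested genes passed for COMB against OAT-1746 and for the interaction. For OAT-1746 against CTR the share was smaller too, and the member that passed was higher instead of lower. With DESeq2, the adjusted calls were 1 (Il12b), 0, 1 (Tnf), 1 (Tnf), 3 (Tnf, Il1a, Csf1) and 3 (Tnf, Il6, Il15) members, beside 16.4%, 0.114%, 0.285%, 0.434%, 25.4% and 9.5% of the genes it gave an adjusted p. Libraries of the groups did not overlap for 5, 4, 4, 5 and 5 members in the 5 pairwise comparisons, beside 62.9%, 37.6%, 27.9%, 26.4% and 54% of tested genes. The median log2 fold change of the members was 0.25, 0.08, −0.45, −0.73 and −0.11 in these comparisons and −0.83 in the interaction, against medians between −0.02 and 0.02 over all tested genes. Leaving out OAT-1746 replicate 2 gave 0.16 for OAT-1746 against CTR, −0.32 for COMB against OAT-1746 and −0.69 for the interaction. Without OAT-1746 replicate 2, 1 member (Tnf) was called for COMB against OAT-1746 beside 0.215% of tested genes, 1 (Tnf) for COMB against anti-PD-1 beside 0.303%, and 0 for the interaction beside 0.199%. The comparisons share libraries (COMB stands in 3 of the 5 pairwise ones, CTR in 3), so their counts do not add up as separate evidence.

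**Figure D2:**
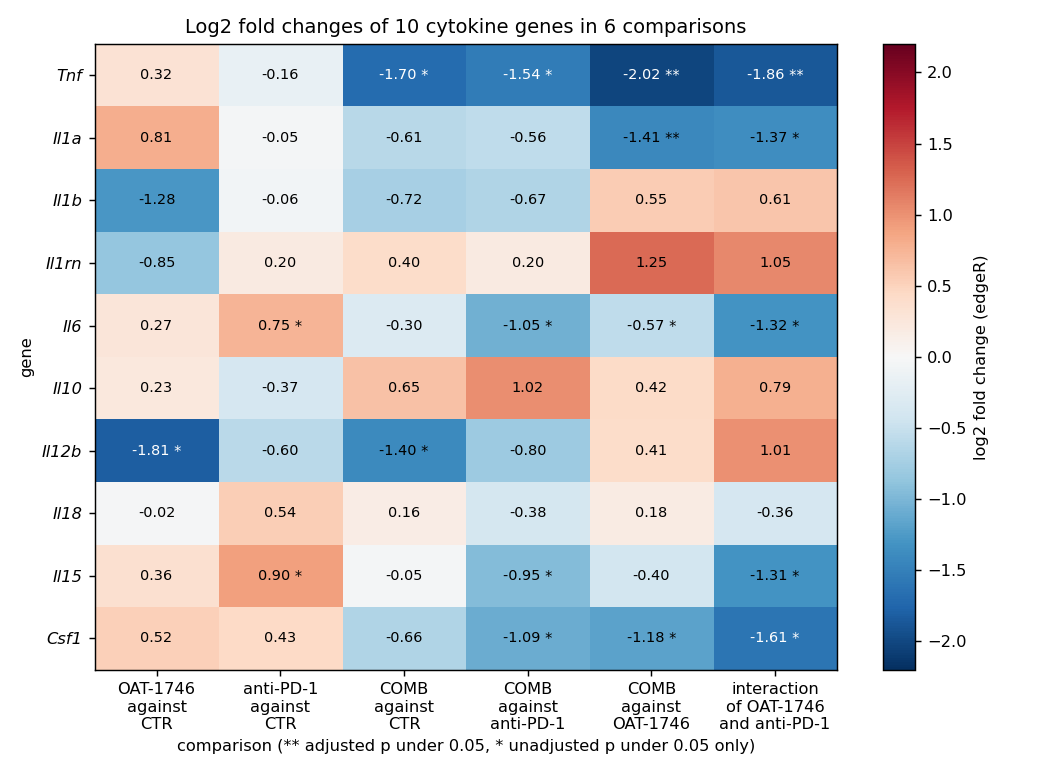
Log2 fold changes of the 10 cytokine genes (vertical) in the 6 comparisons (horizontal), with 2 asterisks for an adjusted p under 0.05 and 1 for an unadjusted p only. Tnf is at −1.70, −1.54 and −2.02 where COMB is compared with CTR, anti-PD-1 and OAT-1746.

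Tnf, which encodes the cytokine TNF-alpha, was the member that set COMB apart. Its levels were 123 and 151 CPM in CTR, 176 and 167 CPM in OAT-1746, 94.98 and 149.96 CPM in anti-PD-1, and 46.5, 43.2 and 36.9 CPM in COMB. All 3 COMB libraries were low, the 6 others were high, and COMB overlapped with no other group. Group means were 137 ± 20.1 CPM (SD, n = 2) in CTR, 172 ± 5.98 (n = 2) in OAT-1746, 122 ± 38.9 (n = 2) in anti-PD-1 and 42.2 ± 4.86 (n = 3) in COMB. Against OAT-1746, Tnf fell by a log2 fold change of 2.02 in COMB (−2.02, 95% interval −2.49 to −1.56, edgeR adjusted p = 0.00528), a 4.07-fold lower level with all 3 COMB libraries below both OAT-1746 libraries. Without OAT-1746 replicate 2, the value was −2.07 (edgeR adjusted p = 0.0129), again with all 3 COMB libraries lower. Leaving out COMB replicate 3 ended this call (−1.94, edgeR adjusted p = 0.0516). Against CTR, Tnf had the smallest unadjusted p of all 12538 tested genes (−1.70, 95% interval −2.16 to −1.24, unadjusted p = 1.46e-05), but with edgeR the adjusted p was 0.184. With DESeq2 the same difference was called (adjusted p = 1.21e-08, −1.68), with 3 of 3 COMB libraries below both CTR libraries. Against anti-PD-1, Tnf ranked 2 of all tested genes (−1.54, SE 0.204, edgeR adjusted p = 0.206), and all 3 COMB libraries were lower. Without OAT-1746 replicate 2 in the fit, this difference was called (−1.50, edgeR adjusted p = 0.039). In the same fit 17 of 22 immediate early and stress genes known to respond to dissociation were lower at an unadjusted p under 0.05 (6 called, median −0.98), beside 9.69% of tested genes. So were 8 of 10 monocyte and macrophage markers (1 called, median −0.69) and 6 of 10 NK-cell markers (0 called, median −0.97), and the part of these lists in Tnf was not tested.

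Each single agent left Tnf without a call against CTR, in comparisons in which 0% of tested genes were called. OAT-1746 against CTR gave 0.32 (95% interval −0.18 to 0.83, edgeR adjusted p = 0.331), with both OAT-1746 libraries above both CTR libraries. Anti-PD-1 against CTR gave −0.16 (95% interval −0.67 to 0.35), with overlapping libraries, and these intervals do not show that there is no difference. For Tnf, the interaction was −1.86 (95% interval −2.55 to −1.17, edgeR adjusted p = 0.0495), with all 3 COMB libraries below the 6 others. It passed the threshold by a small margin and ended without CTR replicate 1, CTR replicate 2, OAT-1746 replicate 2, anti-PD-1 replicate 2, COMB replicate 2 or COMB replicate 3, with adjusted p of 0.0874 to 0.216 in edgeR. The value itself lay between −2.02 and −1.48 in these 6 fits.

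Promoter sequences of 250 bases are shown for Tnf, Il1a, Il6 and Csf1, because these are the members that were lower in COMB than in OAT-1746 at an unadjusted p under 0.05. They are from RefSeq on GRCm38.p6, written in the direction of the gene and ending at the base before the annotated start. Capitals mark matches on either strand to the NF-kB motif (GGG, then any 5 bases, then CC), to the AP-1 motif (TGANTCA) or to the TATA box (TATAAA). Over 32851 promoters of this length, 45.8% hold a match to the first motif, 6.75% to the second and 12.4% to the third, so a match is a description only. The Tnf promoter (chr17:35202008-35202257, minus strand) has 1 NF-kB match, GGGTGTCCCC, 194 to 185 bases before the start, and a TATA box 29 to 24 bases before it.

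Tnf: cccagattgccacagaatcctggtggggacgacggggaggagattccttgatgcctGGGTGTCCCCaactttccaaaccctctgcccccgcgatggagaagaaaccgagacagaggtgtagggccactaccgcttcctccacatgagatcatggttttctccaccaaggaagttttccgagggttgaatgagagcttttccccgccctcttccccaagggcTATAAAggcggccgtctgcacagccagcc

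The Il1a promoter (chr2:129309973-129310222, minus strand) has 1 AP-1 match, 12 to 6 bases before the start, a TATA box 32 to 27 bases before it, and 0 NF-kB matches.

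Il1a: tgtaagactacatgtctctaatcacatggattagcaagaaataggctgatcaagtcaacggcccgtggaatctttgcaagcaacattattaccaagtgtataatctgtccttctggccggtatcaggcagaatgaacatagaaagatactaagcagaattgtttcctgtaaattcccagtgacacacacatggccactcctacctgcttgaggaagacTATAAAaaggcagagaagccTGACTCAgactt

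The Il6 promoter (chr5:30012864-30013113, plus strand) has 3 NF-kB matches, of which GGGATTTTCC and GGATTTTCCC overlap 44 to 34 bases before the start, and 1 AP-1 match 249 to 243 bases before it.

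Il6: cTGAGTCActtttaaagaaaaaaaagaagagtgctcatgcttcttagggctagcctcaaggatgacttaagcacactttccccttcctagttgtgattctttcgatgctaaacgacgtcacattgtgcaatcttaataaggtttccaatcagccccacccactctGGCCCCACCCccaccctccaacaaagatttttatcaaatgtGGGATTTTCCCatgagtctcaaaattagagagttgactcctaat

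The Csf1 promoter (chr3:107760470-107760719, minus strand) has 4 NF-kB matches, of which GGGAAAGTCC and GGAAAGTCCC overlap 155 to 145 bases before the start, and neither of the other motifs.

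Csf1: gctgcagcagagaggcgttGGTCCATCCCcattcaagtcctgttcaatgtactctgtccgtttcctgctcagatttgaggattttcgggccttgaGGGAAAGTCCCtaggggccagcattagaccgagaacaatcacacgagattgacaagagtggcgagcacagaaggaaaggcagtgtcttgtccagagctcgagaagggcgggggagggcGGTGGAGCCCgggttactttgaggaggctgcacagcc

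Entries were found for 8 of the 10 members, all but Il10 and Il15. Of these 8, 4 have an NF-kB match before a listed start, 3 an AP-1 match and 4 a match to the TATA box motif. For Il18 the TATA box match is TTTATA, on the other strand, 175 to 170 bases before the start.

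Il6, which encodes an inducible cytokine of the acute-phase response, was low throughout and lowest in COMB. Its levels were 3.78 and 4.65 CPM in CTR, 4.71 and 5.44 CPM in OAT-1746, 6.13 and 8.06 CPM in anti-PD-1, and 3.04, 3.83 and 3.40 CPM in COMB. The anti-PD-1 libraries were the highest and the COMB libraries lay at the bottom, overlapping with CTR but with neither single-agent group. COMB against anti-PD-1 gave −1.05 for Il6 (95% interval −1.60 to −0.51, edgeR adjusted p = 0.424), with all 3 COMB libraries below both anti-PD-1 libraries. For Il6, the interaction was −1.32 (edgeR adjusted p = 0.102) and was called by DESeq2 (−1.29, adjusted p = 0.0402) and by edgeR without OAT-1746 replicate 1 (−1.42, adjusted p = 0.0376), with COMB below both single-agent groups in 3 of 3 libraries. It was −1.20 (edgeR adjusted p = 0.229) without OAT-1746 replicate 2. Anti-PD-1 against CTR gave 0.75 (edgeR adjusted p = 0.951), with both antibody libraries above both CTR libraries.

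Il1a encodes the IL-1 that is active without cleavage. Its levels were 140.2 and 106 CPM in CTR, 137 and 294 CPM in OAT-1746, 72.7 and 166 CPM in anti-PD-1, and 92.6, 76.2 and 73.5 CPM in COMB. OAT-1746 replicate 2 was far above all other libraries, and COMB was low but overlapped with anti-PD-1. COMB against OAT-1746 was called (−1.41, 95% interval −2.26 to −0.57, edgeR adjusted p = 0.0394), with all 3 COMB libraries below both OAT-1746 libraries. Without OAT-1746 replicate 2, Il1a was at −0.77 and the call ended (edgeR adjusted p = 0.284). The call also ended without CTR replicate 1 or CTR replicate 2, which are not in the groups compared. It ended too without COMB replicate 2 or COMB replicate 3, where 14 and 1 tested genes were called, against 1979 with all libraries. Over the fits that leave out a library, the Il1a value lay between −1.86 and −0.77. The call thus depends on the libraries fitted, and the difference was smallest without OAT-1746 replicate 2.

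Csf1 encodes the growth factor that macrophages and microglia depend on. Its levels were 77.0 and 71.5 CPM in CTR, 81.7 and 131 CPM in OAT-1746, 98.5 and 102 CPM in anti-PD-1, and 76.3, 31.3 and 33.6 CPM in COMB. COMB replicates 2 and 3 were low, while COMB replicate 1 lay within CTR, so COMB overlapped with CTR but with neither single-agent group. COMB against OAT-1746 gave −1.18 for Csf1 (95% interval −1.99 to −0.37, edgeR adjusted p = 0.0534), which missed the threshold with all 3 COMB libraries lower. With DESeq2 it was called (−1.15, adjusted p = 0.0172), as it was by edgeR without the low-count filter (adjusted p = 0.038), without OAT-1746 replicate 1 (0.0194) or without COMB replicate 1 (0.0135). Csf1 was not called in the other 4 settings or the other 7 fits with a library left out, and stood at −0.79 (edgeR adjusted p = 0.332) without OAT-1746 replicate 2. COMB against anti-PD-1 gave −1.09 (edgeR adjusted p = 0.586), also with all 3 COMB libraries lower. The interaction for Csf1 was −1.61 (95% interval −2.82 to −0.40, edgeR adjusted p = 0.126), with COMB below both single-agent groups in 3 of 3 libraries. It was called without OAT-1746 replicate 1 (−1.91, edgeR adjusted p = 0.0339) or COMB replicate 1 (−2.15, edgeR adjusted p = 0.0341), and was −1.20 (edgeR adjusted p = 0.321) without OAT-1746 replicate 2.

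Il1b, the most abundant of the members, varied widely between replicates of a group. Its levels were 792 and 556 CPM in CTR, 424 and 132 CPM in OAT-1746, 237 and 1060.1 CPM in anti-PD-1, and 288, 454 and 483 CPM in COMB. Both CTR libraries were high, both OAT-1746 libraries and all 3 COMB libraries were lower than CTR, and anti-PD-1 held the highest library and one of the lowest. OAT-1746 against CTR gave −1.28 for Il1b (95% interval −2.81 to 0.26, edgeR adjusted p = 0.219), with both libraries lower. This value leans on single libraries: it was −0.65 (edgeR adjusted p = 0.656) without OAT-1746 replicate 2 and −2.35 (edgeR adjusted p = 0.0433) without OAT-1746 replicate 1. COMB against CTR gave −0.72 (95% interval −2.09 to 0.64, edgeR adjusted p = 0.814), with 3 of 3 lower. Itgax, noticed after its values were seen, was also highest in CTR replicate 1 (1431 CPM) and anti-PD-1 replicate 2 (1004 CPM) and lowest in OAT-1746 replicate 2 (96.4 CPM). Whether the 2 genes come from the same cells was not tested.

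Il1rn, for the antagonist that occupies the IL-1 receptor, was even across 8 libraries and low in the remaining one. Its levels were 492 and 593 CPM in CTR, 564 and 38.1 CPM in OAT-1746, 514 and 732 CPM in anti-PD-1, and 548, 806 and 799 CPM in COMB. OAT-1746 replicate 2 was far below all others, and the groups overlapped otherwise. OAT-1746 against CTR gave −0.85 for Il1rn (95% interval −2.77 to 1.07, edgeR adjusted p = 0.503) with this library and 0.07 without it. Leaving out OAT-1746 replicate 1 instead gave −3.83 (edgeR adjusted p = 0.000846), and 4.24 for COMB against OAT-1746 (edgeR adjusted p = 0.00036), so that these calls for Il1rn rest on replicate 2 alone. The level of Il1b relative to Il1rn, per kb of exon, was 4.67 and 2.72 in CTR, 2.18 and 10.1 in OAT-1746, 1.34 and 4.201 in anti-PD-1, and 1.53, 1.64 and 1.76 in COMB. The 3 COMB libraries were close together and below CTR, overlapping with anti-PD-1 only. For Il1a relative to Il1rn the ratio was 21.6 in OAT-1746 replicate 2 and 0.258 to 0.800 in the other 8 libraries. That library is also the one with the lowest sum of monocyte and macrophage markers, and the part of cell composition in these ratios was not tested.

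**Figure D3:**
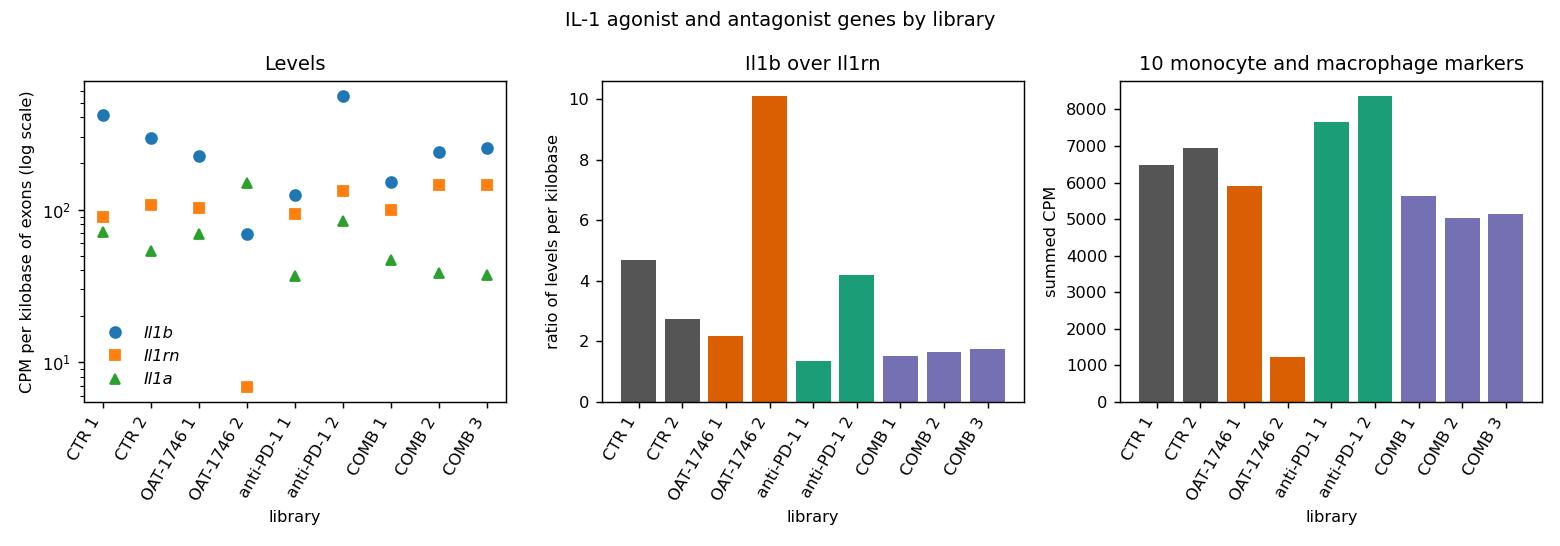
Levels of Il1b, Il1rn and Il1a in each library, in CPM per kb on a log scale (left). Bars colored by group show Il1b over Il1rn per kb (middle) and the summed CPM of 10 monocyte and macrophage markers (right). Il1b over Il1rn is 10.1 in OAT-1746 replicate 2 and at most 4.67 elsewhere.

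Of the cytokines that act on lymphocytes, Il12b encodes the p40 chain shared by IL-12 and IL-23. Its levels were 4.385 and 7.18 CPM in CTR, 2.10 and 1.202 CPM in OAT-1746, 1.53 and 6.03 CPM in anti-PD-1, and 3.19, 1.91 and 1.49 CPM in COMB. CTR was high, OAT-1746 and COMB lay below CTR without overlap, and anti-PD-1 spanned both levels. OAT-1746 against CTR gave −1.81 for Il12b (95% interval −3.24 to −0.37, edgeR adjusted p = 0.0993), with both libraries lower, and DESeq2 called it (−1.81, adjusted p = 0.0387). Omitting OAT-1746 replicate 2 gave −1.44 for Il12b (edgeR adjusted p = 0.402). In the comparison in which Il12b and Il1b were lower, the median of the microglial markers was 0.95 (0.77 without OAT-1746 replicate 2). That of the monocyte and macrophage markers was −0.51 (0.17 without it). With all libraries, 10 of 10 microglial markers were higher at an unadjusted p under 0.05 (edgeR), beside 32.3% of tested genes. At this cut-off 2 of 10 monocyte and macrophage markers were lower. In either list 0 were called, where 0% of all tested genes were called, and their part was not tested. COMB against CTR gave −1.40 (95% interval −2.65 to −0.14, edgeR adjusted p = 0.752), with all 3 COMB libraries lower.

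Il15, a survival factor for NK cells and memory T cells, was highest with the antibody alone. Its levels were 8.53 and 11.6 CPM in CTR, 15.3 and 10.5 CPM in OAT-1746, 21.6 and 16.1 CPM in anti-PD-1, and 10.1, 9.83 and 9.29 CPM in COMB. Both anti-PD-1 libraries were above all others, and COMB lay within CTR. Anti-PD-1 against CTR gave 0.90 for Il15 (95% interval 0.34 to 1.46, edgeR adjusted p = 0.951), with both libraries higher. COMB against anti-PD-1 gave −0.95 (95% interval −1.45 to −0.44, edgeR adjusted p = 0.426), with all 3 COMB libraries lower. The interaction for Il15 was −1.31 (edgeR adjusted p = 0.0958), called by DESeq2 only (−1.29, adjusted p = 0.0303), with COMB below both single-agent groups in 3 of 3 libraries. It was −1.54 (edgeR adjusted p = 0.145) when OAT-1746 replicate 2 was left out.

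Il18, which with IL-12 promotes interferon-gamma production, varied little, from 16.5 to 38.2 CPM. The anti-PD-1 libraries (38.2 and 28.3 CPM) lay above CTR (18.8 and 26.8 CPM) and COMB (24.6, 27.1 and 24.8 CPM), but OAT-1746 (28.3 and 16.5 CPM) spanned most of the range. The largest difference for Il18 was 0.54 for anti-PD-1 against CTR (95% interval −0.08 to 1.17, edgeR adjusted p = 0.965), with both antibody libraries higher. The summed level of 10 NK-cell markers (all 10 found, Gzma the most abundant, none at 0 throughout) was 284 and 169 CPM in anti-PD-1, 68.7 and 79.5 CPM in CTR, 91.3 and 23.3 CPM in OAT-1746, and 77.4, 141 and 149 CPM in COMB. As with Il15, the 2 anti-PD-1 libraries were the highest, and a link between these cells and either cytokine was not tested.

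Il10, the anti-inflammatory cytokine that restrains macrophages, was the least abundant member. Its counts were 22 and 15 in CTR, 14 and 31 in OAT-1746, 14 and 13 in anti-PD-1, and 11, 37 and 27 in COMB. COMB held both the lowest and the highest count. After scaling to library size the lowest level was in anti-PD-1 replicate 2 (0.733 CPM) and the highest in COMB replicate 2 (2.44 CPM). All groups overlapped. Counting error alone gives 95% intervals of 5.49 to 19.7 counts for COMB replicate 1, 26.1 to 51.0 for COMB replicate 2 and 13.8 to 33.3 for CTR replicate 1. COMB against CTR gave 0.65 for Il10 (95% interval −0.62 to 1.92, edgeR adjusted p = 0.819), with 2 of 3 COMB libraries above both CTR libraries.

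Genes that act with the members were compared by list, beside the 15.8% of all tested genes that were called for COMB against OAT-1746 and the 0.215% without OAT-1746 replicate 2. Of 22 immediate early and stress genes known to respond to tissue dissociation (all 22 found, Rhob the most abundant, none at 0 throughout), 17 were called lower in COMB than in OAT-1746, with a median of −1.56 against 0.00 over all tested genes. In the interaction 6 were called lower, with a median of −1.88 against −0.02. Like Tnf and Il6, this list was lowest in COMB: its summed level was 8742, 9444 and 9404 CPM there, 13815 and 13171 CPM in CTR, 20579.5 and 30224 CPM in OAT-1746, and 13837 and 17954.5 CPM in anti-PD-1. Without OAT-1746 replicate 2, 3 were called for COMB against OAT-1746 (median −1.23) and 5 in the interaction (median −1.52). Whether the time or conditions of dissociation differed between groups, and whether this has a part in the level of Tnf, was not tested. Of 12 regulators of cytokine mRNA stability, 5 were called lower in COMB than in OAT-1746 (median −0.54), and without OAT-1746 replicate 2 the count was 0 (median −0.51). Among them, Zfp36, whose protein binds the Tnf transcript and promotes its decay, fell with Tnf (−1.26, edgeR adjusted p = 0.016), with all 3 COMB libraries lower. Of 18 adaptors and kinases of IL-1, TNF and Toll signalling, 1 was called higher (Tradd at 0.82) and 2 lower in COMB than in OAT-1746, and Map3k8, a kinase needed for Tnf production, fell most (−1.72, edgeR adjusted p = 0.00322, 3 of 3 COMB libraries lower). Of these 18, 1 was called without OAT-1746 replicate 2. Of 15 genes of cytokine processing, which include the inflammasome for Il1b and Il18 and the sheddase of Tnf, 2 were called higher (Casp1 at 1.00 and Pycard at 0.77) and 3 lower (Nlrp3 at −1.40, Aim2 at −0.88 and Txnip at −0.67) in the same comparison. Without OAT-1746 replicate 2, 0 of these 15 were called. Of 19 receptors and soluble inhibitors, 2 were called lower, Il6st (−0.93), the signalling chain for IL-6, and Il10ra (−0.58), the receptor for IL-10, and 0 were called without OAT-1746 replicate 2. Of 17 other cytokine ligands tested, 4 were called higher in COMB than in OAT-1746 and 0 lower (median 0.58), and 0 without OAT-1746 replicate 2 (median 0.20). The list of 12 IL-6 and IL-10 signalling genes held 0 calls for COMB against OAT-1746. Its median was 0.48 with OAT-1746 replicate 2 and 0.09 without it. Cell-type markers differed in this comparison, in both directions. Of 10 microglial markers 2 were called lower (median −0.70, and −0.54 with 0 called without OAT-1746 replicate 2), and of 6 neuronal markers, which sum to only 4.36 to 15.2 CPM in any library, 4 were called lower (median −1.96, and −1.91 with 0 called without it). Of 6 astrocyte markers 2 were called higher and 1 lower (median 0.77, and 0.61 with 0 called without it), and of 10 NK-cell markers 0 were called, with a median of 0.96 (0.41 without it). Of 10 monocyte and macrophage markers 0 were called, and their median was 0.47 with OAT-1746 replicate 2 and −0.31 without it. Their part in the levels of Tnf and Il1a was not tested.

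**Figure D4:**
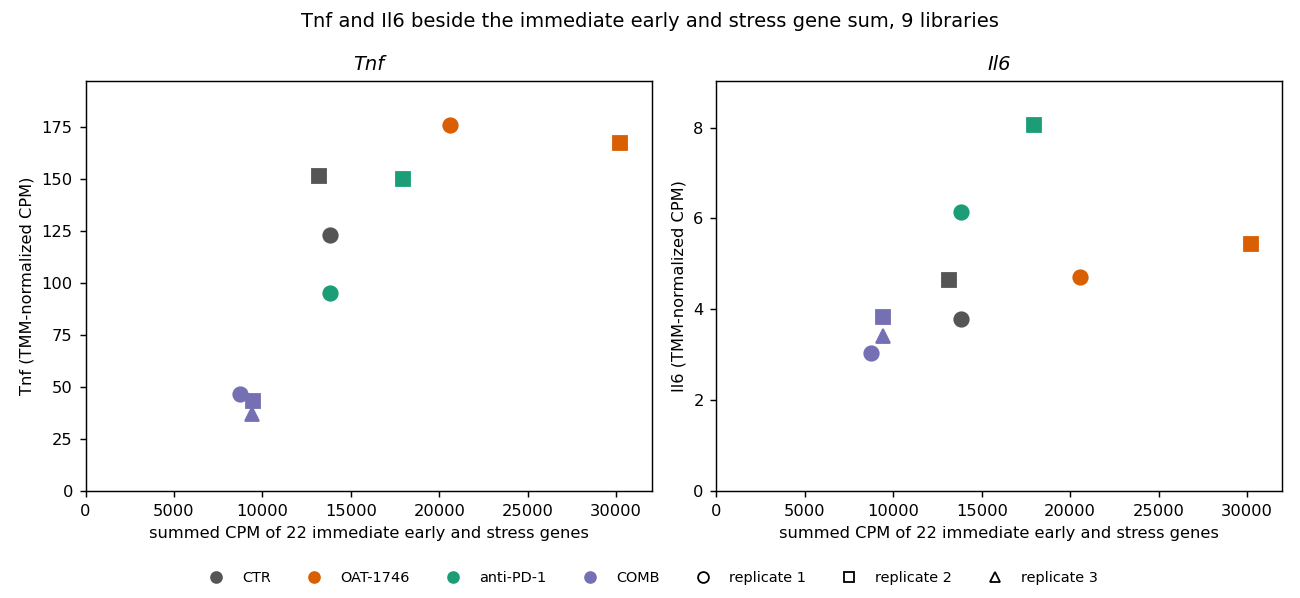
Tnf and Il6 (CPM, vertical) against the summed level of 22 immediate early and stress genes (CPM, horizontal); each point is 1 library, by group. The COMB libraries lie at 8742 to 9444 CPM of the sum and 36.9 to 46.5 CPM of Tnf.

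The genes whose levels were closest to each member over the 9 libraries give a description of what it varied with. For Tnf these were Dusp4 (Pearson r = 0.957), Junb (0.946) and Paxip1 (0.946), and for Il6 they were Dusp5 (0.935), Gadd45b (0.925) and Srf (0.918). Dusp4, Junb, Dusp5, Gadd45b and Srf are themselves genes of the early response to stimulation. For Il1rn, the closest were Gm21188 (0.990), Mcemp1 (0.989) and Acod1 (0.987). Mcemp1 and Acod1 are genes of activated monocytes and macrophages, with a Spearman rho of 0.85 and 0.783. These values include OAT-1746 replicate 2, in which Il1rn was far below all others, and their dependence on it was not tested. For Il10 the closest was Ccl8 (0.964), for Il18 Gramd3 (0.965) followed by Casp8 (0.946), and for Csf1 Tshz1 (0.978) followed by Rgs2 (0.962). With 9 libraries in 4 groups, such values reflect the differences between groups as well as those within them.

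The difference in Tnf between COMB and the other groups kept its direction in every setting. With a library left out, it lay between −2.13 and −1.94 for COMB against OAT-1746 and between −1.84 and −1.54 for COMB against CTR. The range was wider for COMB against anti-PD-1, −1.79 to −1.15, and for the interaction, −2.12 to −1.48. For COMB against OAT-1746 the difference in Tnf was called in 5 of 6 other settings and in 8 of 9 fits that leave out a library, and for the interaction in 2 of 5 and 3 of 9. Both calls ended with a replicate block (adjusted p = 0.102 at −1.94 and 0.382 at −1.76, edgeR). COMB against CTR was called with DESeq2, without the low-count filter (adjusted p = 0.031 at −1.67, edgeR) and with only the groups compared in the fit (adjusted p = 0.00747 at −1.69, edgeR).

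**Figure D5:**
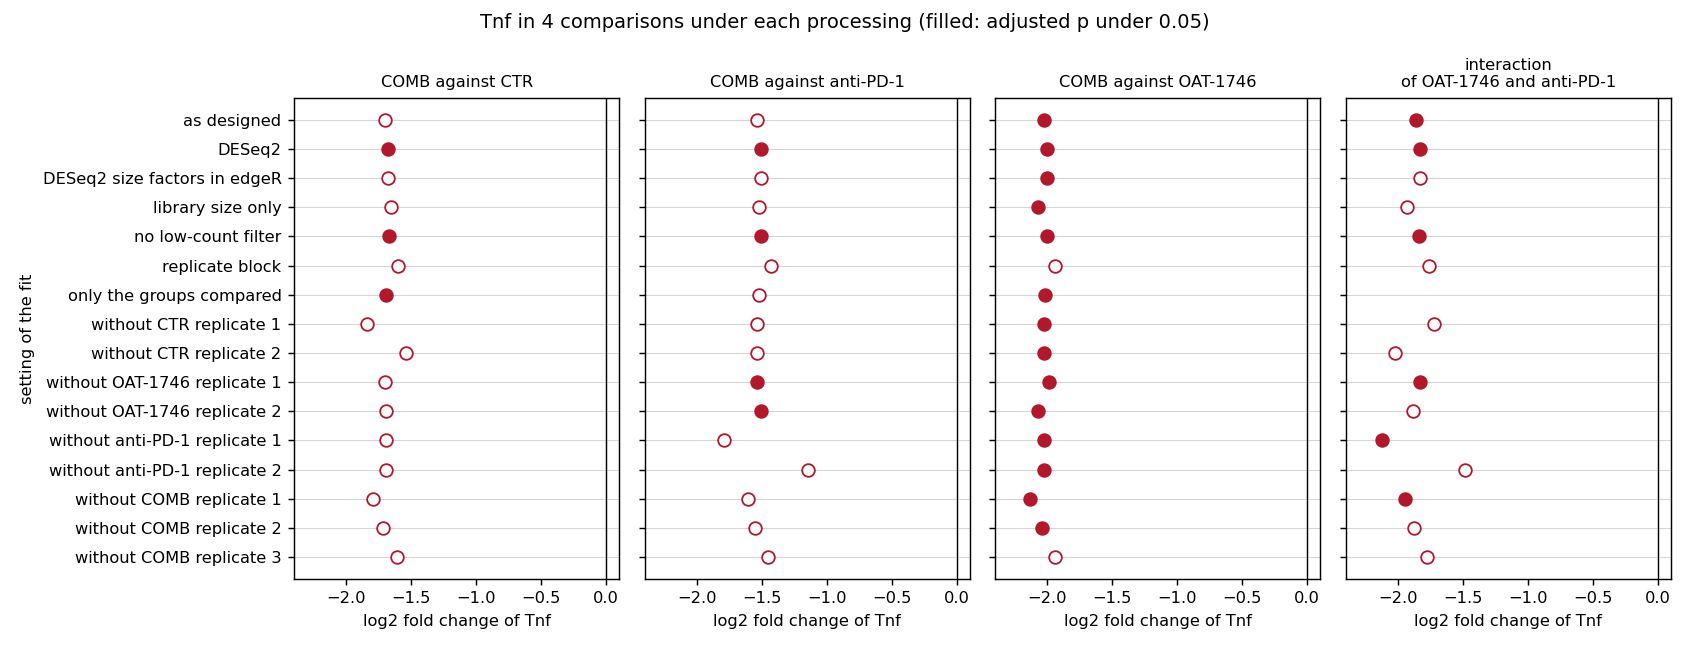
Log2 fold change of Tnf for COMB against CTR, anti-PD-1 and OAT-1746 and for the interaction in every setting, with called values marked. The values for COMB against OAT-1746 lie around −2.02 in all settings.

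Taken over all comparisons, Tnf was lower in CD11b+ cells of COMB than in every other library, and was called against OAT-1746 and, by a small margin, in the interaction. Il1a was called against OAT-1746 only with OAT-1746 replicate 2 included, and the other 8 members were not called in any comparison by edgeR with all libraries and the settings used throughout. Some of them were called in other settings or with a library left out. Groups of 2 or 3 libraries leave wide intervals, so that members without a call may still differ. Levels of RNA in sorted cells do not give the amount of secreted protein. The parts of cell composition and of dissociation in these levels were not tested.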

How the data were processed

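Gene counts as deposited by the authors were used, 1 HTSeq count table for 9 libraries. By the study's methods and the submitters' notes, reads were trimmed with Trimmomatic, aligned to mm10 with STAR, checked for duplicates with Picard and counted with HTSeq, and the authors used DESeq2; the annotation release was not given in the sources used here. GENCODE M21 on GRCm38 supplied gene names, types and exon lengths: 53620 of 53801 genes were matched and 181 were without an entry. Protein-coding genes were kept by filterByExpr (minimum count 10), leaving 12538 tested genes. Library totals were 13048075 to 18796479 counts.

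Differences were tested with edgeR 4.0.16 in R 4.3.3: TMM scaling, quasi-likelihood fits with 4 group means (common BCV 0.214, prior df 4.15), and Benjamini-Hochberg adjustment over all tested genes, with calls at an adjusted p under 0.05. Contrasts were the 5 pairwise comparisons and the interaction, which is COMB minus anti-PD-1 minus OAT-1746 plus CTR. CPM are counts scaled to library size with TMM factors, and levels per kb divide by merged exon length. Alternatives were DESeq2 1.42.0, DESeq2 size factors, library size only, no low-count filter, a replicate block, only the groups compared, and leaving out each library. Intervals for Il10 counts are exact Poisson intervals. Promoters are RefSeq on GRCm38.p6.

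Genes are named when they are members, belong to a gene list, or are closest to a member in level. The members and lists were chosen with earlier results of these data known. The anti-PD-1 replicate 2 label reads "anti-PD-2" and was grouped by its title. Whether a library came from 1 animal or more was not given in the sources used here. The steps were tested on simulated data. Python 3.11.15 and matplotlib 3.10.9 made the figures.

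Limits: groups of 2 or 3 libraries, 1 library standing apart (OAT-1746 replicate 2), bulk RNA without cell counts, no batch information, and collection days that differ between the methods and a figure legend.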

Additional observations from a re-analysis of the deposited data

Results flagged for a closer look

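Tnf, interaction of OAT-1746 and anti-PD-1: the log2 difference is −1.86 with an adjusted p of 0.0495 (edgeR). Neither agent alone gave a call for Tnf against the controls. With edgeR at the settings used throughout, both agents together gave no call either. In each of these comparisons that fit called 0 of 12538 tested genes. Both agents together did give a call with DESeq2, without the low-count filter and with only the groups compared in the fit. The 3 libraries given both agents are lower than all others. The adjusted p is just under the threshold and goes above it when any of 6 libraries is left out. It also goes above it with DESeq2 size factors (0.054), with library size only (0.0501) and with a replicate block (0.382), so the call depends on libraries, scaling and design. The difference lay between −2.02 and −1.48 in the fits in which the call was lost.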

How the results depend on the processing

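Calls on members moved with the tool and the libraries, while the differences of Tnf and Il1a between COMB and OAT-1746 kept their direction in every fit. Of 10 members, 0 were called for OAT-1746 against CTR with edgeR and 1 with DESeq2, and 0 to 3 when a library was left out. For anti-PD-1 against CTR 0 were called in every setting. For COMB against CTR 0 were called, against 1 with DESeq2, 1 without the low-count filter and 1 with only the groups compared, and 0 with any library left out. For COMB against anti-PD-1 0 were called, against 1 with DESeq2, 1 without the low-count filter and 0 to 1 with a library left out. For COMB against OAT-1746 2 were called, against 3 with DESeq2, 3 without the low-count filter, 1 with only the groups compared and 0 to 4 with a library left out. For the interaction 1 was called, against 3 with DESeq2, 0 with DESeq2 size factors, 0 with library size only and 0 to 5 with a library left out. The interaction uses all 4 groups and has no fit with only the groups compared.

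With the replicate block, 0 members were called for COMB against OAT-1746 and 0 for the interaction, and 2 and 0 tested genes. COMB replicate 3 has no partner in the other groups and is absorbed by the block. The Pearson r that checks whether replicates with the same number pair up was 0.08, −0.22, −0.10, −0.20, −0.32 and 0.04.

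Tested genes called were 1979 for COMB against OAT-1746, against 3062 with DESeq2, 30 with only the groups compared and 1 to 4058 with a library left out. For the interaction they were 45, against 1053 with DESeq2, 146 without the low-count filter, 24 with library size only and 0 to 2756. For OAT-1746 against CTR they were 0, against 1972 with DESeq2, 587 without the filter and 0 to 3647. For COMB against CTR they were 0, against 35 with DESeq2, 2 without the filter and 5 with only the groups compared. For COMB against anti-PD-1 they were 0, against 47 with DESeq2, 2 without the filter, 17 with only the groups compared and 0 to 43. For anti-PD-1 against CTR they were 0, against 14 with DESeq2. Of the genes at an unadjusted p under 0.05 for COMB against CTR, 48.8% were higher with TMM and 62.3% with library size only.

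Log2 fold changes of these members changed sign in at least 1 fit with a library left out, given as main value and range. For OAT-1746 against CTR these were Il1rn −0.85 (−3.83 to 0.0747), Il10 0.23 (−0.41 to 0.68) and Il18 −0.02 (−0.46 to 0.33; 0.0537 with library size only). For anti-PD-1 against CTR they were Tnf −0.16 (−0.55 to 0.0941), Il1a −0.05 (−0.78 to 0.39), Il1b −0.06 (−1.53 to 0.62), Il1rn 0.20 (−0.0948 to 0.40) and Il12b −0.60 (−1.93 to 0.0253). For COMB against CTR they were Il18 0.16 (−0.0711 to 0.44) and Il15 −0.05 (−0.25 to 0.19). For COMB against anti-PD-1 they were Il1a −0.56 (−0.99 to 0.18), Il1b −0.67 (−1.34 to 0.80) and Il12b −0.80 (−1.41 to 0.54). For COMB against OAT-1746 they were Il1b 0.55 (−0.0732 to 1.63), Il10 0.42 (−0.0339 to 1.06) and Il18 0.18 (−0.17 to 0.62). For the interaction they were Il1b 0.61 (−0.0793 to 2.07) and Il18 −0.36 (−0.69 to 0.0791).

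Where 1 library of a group of 2 is left out, the lone library is assumed to vary like the other groups. The cause of these shifts was not tested.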
